A study of Mus musculus with 4 samples.

Results

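Fibroblast growth factors (FGFs) are secreted proteins that, together with heparan sulfate on the cell surface, bind FGF receptors, tyrosine kinases that signal through the RAS and ERK kinases. In mouse embryonic stem cells (ESCs) the ligand FGF4, made by the cells themselves, drives ERK signalling and readies the cells to leave the naive state. Epiblast stem cells (EpiSCs), the primed counterpart of the post-implantation epiblast, are cultured with FGF, and Fgf5 and Fgf8 are ligands of the epiblast and primitive streak. The 9 genes described here are 5 ligands (Fgf3, Fgf4, Fgf8, Fgf15 and Fgf17) and the 4 receptor kinases (Fgfr1, Fgfr2, Fgfr3 and Fgfr4). They were taken by name from the 37620 genes of the raw count table and not by any measured value, and all 9 were also among the 15462 genes left in the normalized table after the removal of low values.

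Wild-type (WT) R1 mouse ESCs of strain 129/Sv and R1 cells lacking Cripto (Cripto KO) were kept in serum/LIF or were moved into N2B27 medium with basic FGF and 20 ng per ml Activin A for 6 days (F/A). Cripto, whose gene symbol is Tdgf1, is a co-receptor for Nodal on the cell surface. Each of the 4 cultures gave 1 library of total RNA, so that no value has a replicate error, every ratio compares 1 library with 1 library, and no test between conditions was run. Which of the study's Cripto KO clones was sequenced is not given in the sources used here, and clone and genotype cannot be told apart. The F/A medium holds FGF protein, so levels of ligand RNA do not measure the FGF that the cells met.

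The counts on genes summed to 15230856 to 17315442 per library. Tdgf1, the targeted gene, was counted 18714 times in WT serum/LIF, 1572 times in WT F/A, 945 times in Cripto KO serum/LIF and 86 times in Cripto KO F/A, which goes with the genotype labels. In either genotype the 5 naive pluripotency genes of the normalized table were at least 2-fold lower in F/A, where Nr0b1 had 0 counts. Pou5f1, a gene that naive and primed cells share, went from 26857 to 1810 counts in WT and from 21995 to 1216 in Cripto KO, and Nanog from 11633 to 259 and from 7270 to 126, so these markers were far lower in the cultures labelled EpiSC than in those labelled ESC. In the Cripto KO F/A library nearly all counts were even, with 3 genes at an odd count (0.0160% of its genes with counts, against 53.1% to 53.6% elsewhere). Its counts were therefore divided by 2 for every interval, and its detection floor was 6 counts in place of 3.

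The sequences shown first belong to the member with the largest loss in F/A and to its neighbour, since these 2 genes lie side by side and had unlike levels. Fgf4 carries in the untranslated end of its last exon a well-known enhancer element, where SOX2 and OCT4 (the product of Pou5f1) bind side by side in ESCs. The stretch below was read from NCBIM37, the build of the counts, at chr7:152050293-152050322 on the + strand, 832 bases before the end of the gene, with the searched letters (CTTTGTT, any 3 bases, ATGCTAAT, on either strand) in capitals.
Fgf4 enhancer element: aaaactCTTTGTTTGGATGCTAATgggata
These letters were found in the last 1000 bases of 1 of 22380 protein-coding genes (0.00447%), which was Fgf4 itself. The letters were chosen because the element is known, and the match describes the sequence and not its occupancy in these cells.

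Promoter sequences of 300 bases, from 250 before to 50 after the start, were at hand from RefSeq on GRCm38.p6 for 5 of the 9 genes (Fgf3, Fgf4, Fgfr2, Fgfr3 and Fgfr4). Those of Fgf3 (chr7:144838362-144838661, + strand) and Fgf4 (chr7:144861136-144861435, + strand) are printed because both genes lie in 1 cluster with Fgf15. Capitals mark GGGCGG (a GC box) and runs of TATATA, both searched on either strand, and overlapping TATATA matches were merged.
Fgf3 promoter: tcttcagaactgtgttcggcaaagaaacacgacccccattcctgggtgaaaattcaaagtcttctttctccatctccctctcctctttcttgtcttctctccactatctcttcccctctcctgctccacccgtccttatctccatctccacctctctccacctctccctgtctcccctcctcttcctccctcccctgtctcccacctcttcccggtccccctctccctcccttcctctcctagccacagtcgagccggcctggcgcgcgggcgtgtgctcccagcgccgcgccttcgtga
Fgf4 promoter: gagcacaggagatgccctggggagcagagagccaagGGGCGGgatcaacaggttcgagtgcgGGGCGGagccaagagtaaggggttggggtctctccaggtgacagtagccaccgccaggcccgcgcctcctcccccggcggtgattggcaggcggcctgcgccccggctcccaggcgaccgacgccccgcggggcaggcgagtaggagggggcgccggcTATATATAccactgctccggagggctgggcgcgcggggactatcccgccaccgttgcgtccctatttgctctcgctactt
The Fgf4 window held 2 GC boxes and 2 overlapping TATATA matches with a GC content of 69.7%, whereas the Fgf3 window held neither and was 59.3% GC. Of 32851 promoters of that length, 35.7% held a GC box and 5.67% held TATATA. On its sense strand the Fgf3 window was 75.0% pyrimidine, a share that 0.107% of the promoters reached.

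Among the 5 member ligands the one with the most counts was Fgf4 in serum/LIF and Fgf8 in F/A, in both genotypes. Fgf4, the autocrine ligand of ESCs (chr7:152047291-152051148, + strand, NCBIM37 as for all gene positions here), was counted 3293 times in WT serum/LIF, 15 times in WT F/A, 2549 times in Cripto KO serum/LIF and 24 times in Cripto KO F/A. Both serum/LIF libraries were high and both F/A libraries low. In bulk RNA, fewer cells of a type and less RNA per cell cannot be told apart. Ratios here are of the quantile-normalized values, and the interval behind a ratio is the 95% Clopper-Pearson interval of the raw counts scaled by library totals. It covers counting error only, since each condition has 1 library. Reads without molecular identifiers are not independent molecules, so it may be too narrow even for that error. The F/A level of Fgf4 was 192-fold lower than the serum/LIF level in WT (interval 117 to 345) and 89.5-fold lower in Cripto KO (interval 58.8 to 199). The Cripto KO to WT ratio was 0.782 to 0.868 by its interval in serum/LIF (log2 -0.32), and in F/A the interval of 0.662 to 3.54 included 1.

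Fgf8, a ligand of the primitive streak and of many later signalling centres (chr19:45811288-45817405, - strand), ran the opposite way, with 2 counts in WT serum/LIF, 1256 in WT F/A, 2 in Cripto KO serum/LIF and 1066 in Cripto KO F/A. Both serum/LIF libraries were under the floor of 3 counts, so no ratio between them is given. On CPM (counts scaled to the library total alone) the F/A to serum/LIF ratio was 714 in WT (interval 197 to 5902) and 551 in Cripto KO (interval 152 to 4558), and these intervals overlap widely. Within F/A, Fgf8 was lower in Cripto KO than in WT with an interval of 0.741 to 0.910, short of a 2-fold difference (log2 -0.26).

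**Figure D1:**
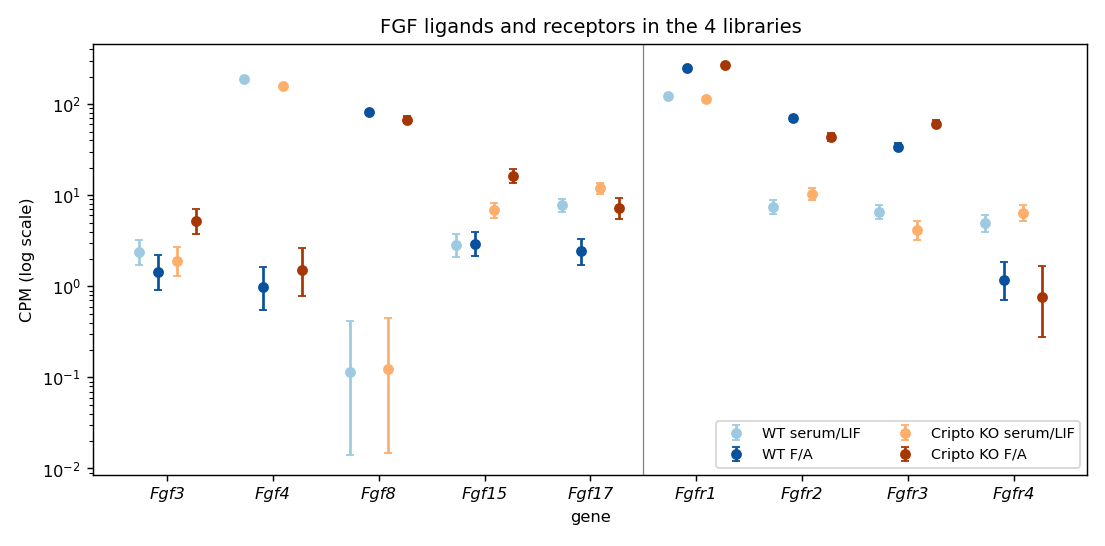
CPM (counts scaled to the library total) of each FGF ligand (left of the line) and receptor (right of the line) in the 4 libraries, on a log axis. Points are single libraries and bars are 95% counting intervals, with the counts of Cripto KO F/A divided by 2 for its interval. Fgf4 and Fgf8 swap between serum/LIF and F/A in both genotypes, while Fgf3, Fgf15 and Fgf17 stand higher in Cripto KO F/A than in WT F/A.

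The other member ligands were counted far less often, and 3 of the 5 ligands were at least 2-fold higher in Cripto KO than in WT after F/A. Fgf15, the mouse form of FGF19, is an endocrine factor that is also made in the early nervous system (chr7:152082437-152086858, + strand). It was counted 49 times in WT serum/LIF, 45 times in WT F/A, 112 times in Cripto KO serum/LIF and 258 times in Cripto KO F/A. Both Cripto KO libraries stood above both WT libraries, which were alike (1.04-fold apart on CPM, interval 0.681 to 1.60). The Cripto KO to WT ratio was 5.50 in F/A (interval 3.92 to 7.97) and 2.77 in serum/LIF (interval 1.73 to 3.48). Exons of Fgf15 share 478 of their 1809 bases with exons of Gm17685, a noncoding RNA of the opposite strand that was counted 21, 35, 48 and 132 times in the same order of libraries. The strand setting of the counting is not stated, so reads of the 2 genes may not be separable and both values are uncertain.

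Fgf3, which acts in the primitive streak and in inner ear and tail development (chr7:152023988-152030341, + strand), had 41 counts in WT serum/LIF, 22 in WT F/A, 31 in Cripto KO serum/LIF and 82 in Cripto KO F/A. The Cripto KO F/A library was the only one that stood apart from its neighbour in level beyond counting error (2.20-fold above WT serum/LIF on CPM, interval 1.39 to 3.48). Against WT F/A, Fgf3 was higher by 1.88 on the log2 scale, with an interval of 2.10 to 6.36 for the ratio. Fgf17, a close relative of Fgf8 (chr14:71036012-71042075, - strand), had 134 counts in WT serum/LIF, 37 in WT F/A, 194 in Cripto KO serum/LIF and 114 in Cripto KO F/A. WT F/A was the low library. The F/A to serum/LIF ratio of Fgf17 was log2 -1.69 in WT and -0.80 in Cripto KO, and the gene was 3.05-fold higher in Cripto KO F/A than in WT F/A (interval 1.94 to 4.64). The serum/LIF ratio of Cripto KO to WT had an interval of 1.23 to 1.94.

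All 4 receptor genes differed between serum/LIF and F/A in the same direction in both genotypes. Fgfr1, the main receptor of ESCs (chr8:26624126-26686186, + strand), was the member receptor with the most counts, with 2130 in WT serum/LIF, 3785 in WT F/A, 1875 in Cripto KO serum/LIF and 4216 in Cripto KO F/A. It was 1.93-fold higher in F/A in WT (interval 1.92 to 2.13) and 2.35-fold higher in Cripto KO (interval 2.18 to 2.47), so that the normalized values put it past 2-fold in Cripto KO and short of it in WT. With counts scaled by library totals the WT ratio was 2.02, past 2-fold too. Within each culture the genotypes were close, with intervals of 1.02 to 1.14 in F/A and 0.881 to 0.998 in serum/LIF. Of its 8061 exon bases 886 are shared with other annotated genes. A second Fgfr1 entry on the same strand, at 0 counts in every library, shares 761 bases, where reads cannot be told apart under any strand setting. The antisense RNA Gm16159 (118, 217, 88 and 220 counts) shares 125 bases, which bears on the values of Fgfr1 in the same way as Gm17685 does for Fgf15.

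Fgfr2, whose splice forms answer to ligands of epithelium or mesenchyme (annotated as chr7:137305965-140315033, - strand), had 129 counts in WT serum/LIF, 1071 in WT F/A, 167 in Cripto KO serum/LIF and 690 in Cripto KO F/A. Fgfr3, a receptor of cartilage and neural progenitors among other tissues (chr5:34064373-34079716, + strand), had 114 in WT serum/LIF, 519 in WT F/A, 67 in Cripto KO serum/LIF and 960 in Cripto KO F/A. Both F/A libraries were above both serum/LIF libraries for each of these receptors. The order of the genotypes within F/A was opposite, with WT the higher library for Fgfr2 and Cripto KO the higher library for Fgfr3. In F/A against serum/LIF, Fgfr2 was 9.15-fold higher in WT (interval 7.86 to 11.4) and 3.95-fold higher in Cripto KO (interval 3.54 to 5.17). For Fgfr3 the ratio was 5.15 in WT (interval 4.22 to 6.40) and 13.9 in Cripto KO (interval 11.4 to 19.4). The Cripto KO to WT ratio within F/A was 0.636 for Fgfr2 (interval 0.551 to 0.704) and 1.79 for Fgfr3 (interval 1.58 to 2.03), neither of which reached 2-fold. The annotated span of Fgfr2 is 3.01 Mb and overlaps 41 other genes, but its exons meet those of only 1 of them, Ctbp2, over 314 of 7796 bases. The span runs into Ctbp2 over 135788 bases, and whether transcripts of these cells reach that far was not tested.

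Fgfr4, a receptor of endoderm, liver and muscle that is also found in ESCs (chr13:55254001-55270120, + strand), was the 1 receptor gene lower in F/A. It had 85 counts in WT serum/LIF, 18 in WT F/A, 104 in Cripto KO serum/LIF and 12 in Cripto KO F/A. The loss was 3.96-fold in WT (interval 2.48 to 7.34) and 7.40-fold in Cripto KO (interval 3.73 to 23.4). Both intervals of Cripto KO against WT, 0.210 to 1.70 in F/A and 0.969 to 1.76 in serum/LIF, included 1, so a genotype difference in Fgfr4 was not detectable at this depth.

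**Figure D2:**
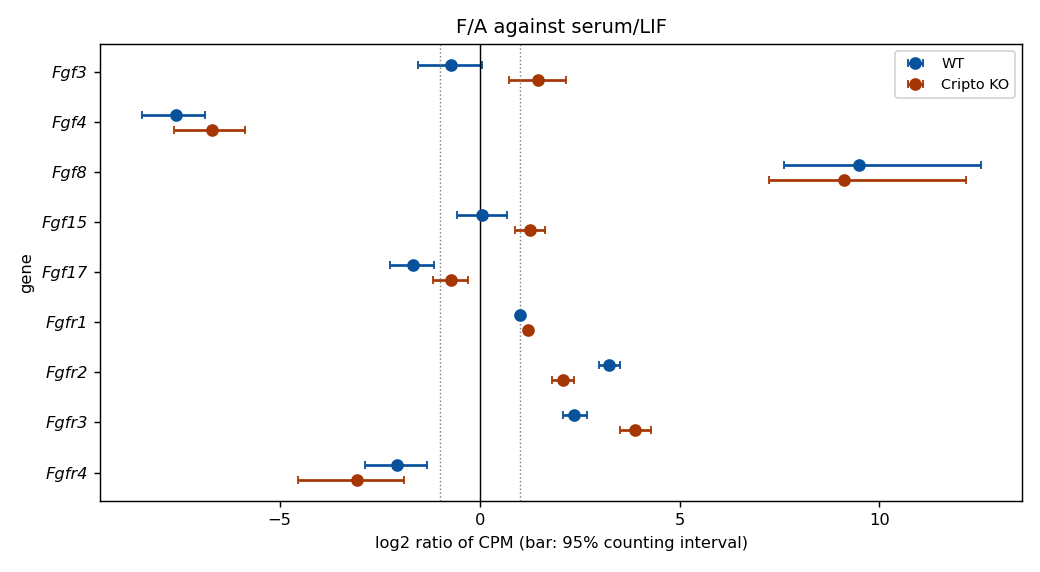
Log2 ratio of CPM, F/A against serum/LIF, for each gene in WT and in Cripto KO, with 95% counting intervals as bars and dotted lines at a 2-fold difference. Fgf8 lies far to the right and Fgf4 far to the left in both genotypes, and Fgf3 lies on opposite sides of 0, although the bar of WT reaches 0.

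Counted over the 9 genes, 3 were at least 2-fold higher in F/A in WT (Fgf8, Fgfr2 and Fgfr3), where 22.1% of all genes tested were, and 3 were at least 2-fold lower (Fgf4, Fgf17 and Fgfr4), where 20.9% of all genes were. In Cripto KO 6 were higher (Fgf3, Fgf8, Fgf15, Fgfr1, Fgfr2 and Fgfr3) beside 19.9% of all genes, and 2 were lower (Fgf4 and Fgfr4) beside 19.4%. Within F/A, 3 of the 9 were at least 2-fold higher in Cripto KO, all of them ligands, beside 4.57% of all genes, and 0 were lower beside 5.69%. Within serum/LIF, Fgf15 alone was at least 2-fold higher beside 2.86% of all genes, and 0 were lower beside 2.73%. The median log2 ratio of Cripto KO to WT in F/A was 1.61 for the 5 ligands and -0.13 for the 4 receptors, beside 0 over all genes. The 8 further FGF ligands of the normalized table did not share this, with 2 higher, 3 lower and a median of 0.02. These comparisons share libraries and their counts are not independent of each other.

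The F/A response itself differed between genotypes by at least 2-fold for 4 of the 9 genes, as it did for 17.1% of all genes. The log2 response of Cripto KO minus that of WT was 2.01 for Fgf3 (counting interval 1.16 to 3.17), 1.43 for Fgfr3 (1.05 to 1.99), -1.21 for Fgfr2 (-1.52 to -0.77) and 1.10 for Fgf4, whose interval of -0.19 to 2.01 included 0. For Fgf15 the difference of 0.99 (0.50 to 1.88) and for Fgf17 that of 0.89 (0.28 to 1.63) left out 0 but fell short of 2-fold. Which genes passed depended on the scaling: with counts scaled by library totals, the scale of these intervals, Fgf15 (1.19) and Fgfr4 (-1.01) passed 2-fold and Fgf4 (0.91) did not, while Fgf3, Fgfr2 and Fgfr3 passed under every alternative run. The intervals of these differences are normal approximations from the counts, which are rough where counts are low, as for Fgf4 and Fgfr4 in F/A. Without replicates these intervals say only that the counts of these libraries differ.

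**Figure D3:**
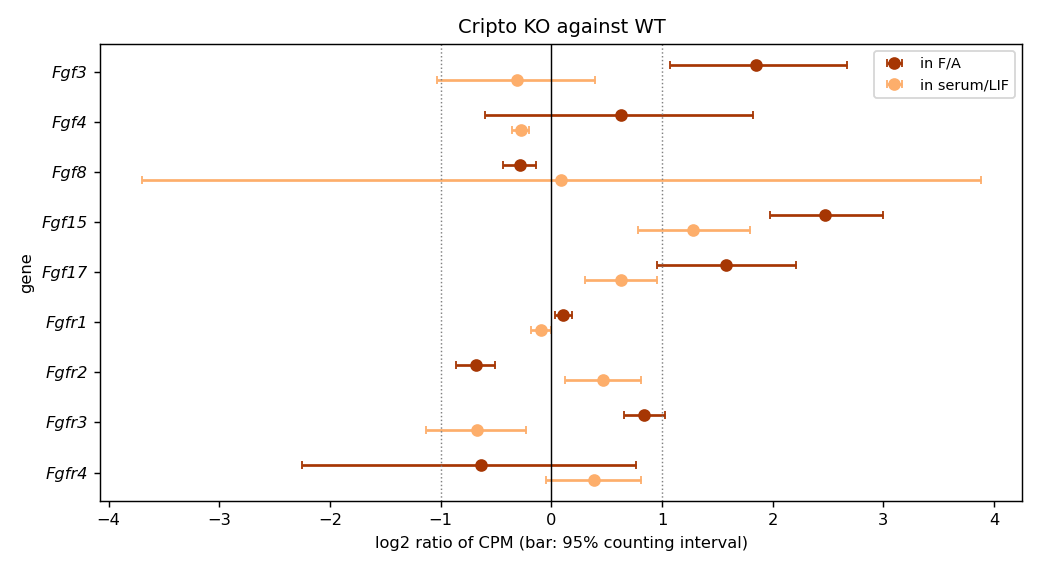
Log2 ratio of CPM, Cripto KO against WT, for each gene in F/A and in serum/LIF, with 95% counting intervals as bars and dotted lines at a 2-fold difference. Fgf3, Fgf15 and Fgf17 lie to the right of the 2-fold line in F/A, and Fgf15 alone does so in serum/LIF.

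Levels can be compared between genes only per length, here as CPM per kb of the median transcript. The summed level of the 5 ligands was 70.7 and 64.1 CPM per kb in serum/LIF (WT and Cripto KO) and 91.2 and 88.8 in F/A. Of this sum, Fgf4 made 88.8% in WT serum/LIF and 80.8% in Cripto KO serum/LIF, and Fgf8 made 95.2% in WT F/A and 80.3% in Cripto KO F/A. Fgf15 was the second ligand of Cripto KO F/A at 10.2%, against 1.79% in WT F/A. The summed level of the 4 receptors was 93.1 and 91.0 CPM per kb in serum/LIF (WT and Cripto KO) and 207 and 218 in F/A. Fgfr1 led the receptors in every library, with 84.5% and 81.1% in serum/LIF and 76.8% and 78.6% in F/A. Fgfr2 came next in WT F/A with 15.5%, above the 6.83% of Fgfr3, whereas in Cripto KO F/A Fgfr3 had 11.6% and Fgfr2 9.16%. These shares depend on the annotated length: with the longest transcript of each gene, Fgfr1 made 67.2% in WT F/A and 68.6% in Cripto KO F/A, and the share of Fgfr4 in WT serum/LIF went from 8.93% to 5.03%. The orders of Fgfr2 and Fgfr3 in F/A were kept.

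**Figure D4:**
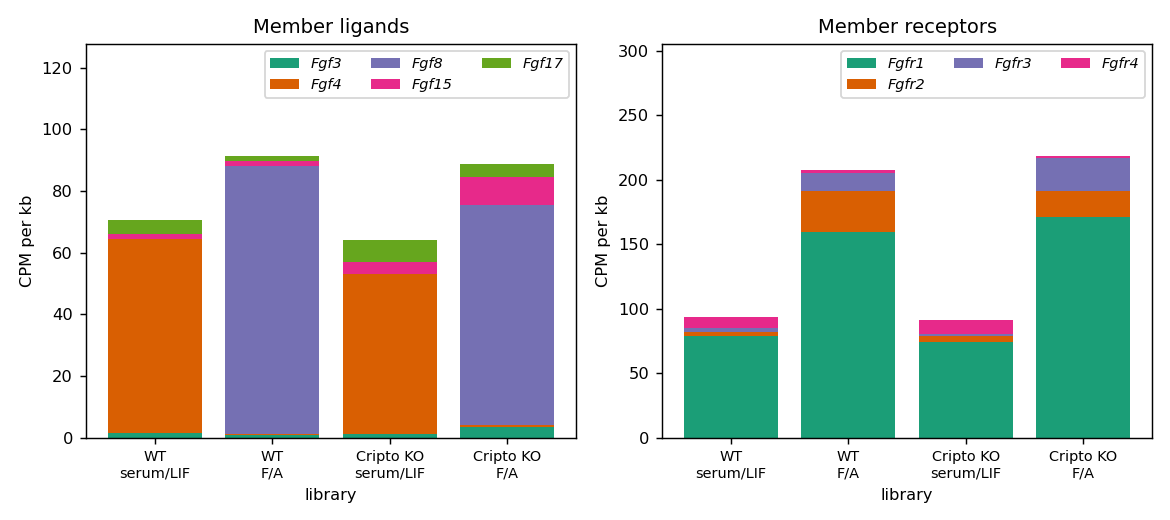
Stacked levels of the 5 ligands (left) and the 4 receptors (right) in CPM per kb of median transcript length, 1 bar per library. The ligand bars are mostly Fgf4 in serum/LIF and mostly Fgf8 in F/A, and Fgfr1 fills most of every receptor bar.

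Among all 18 secreted FGF ligands of the annotation, 11 were above the floor in WT serum/LIF, 16 in WT F/A, 12 in Cripto KO serum/LIF and 14 in Cripto KO F/A. Fgf4 stayed the highest per length in both serum/LIF libraries (67.2% and 52.6% of all ligands) and Fgf8 in both F/A libraries (43.3% and 46.4%). The summed level of the 18 was 93.3 and 98.4 CPM per kb in serum/LIF (WT and Cripto KO), 201 in WT F/A and 154 in Cripto KO F/A. Fgf5, the epiblast ligand, was counted 3 times in WT serum/LIF, 2206 times in WT F/A, 1 time in Cripto KO serum/LIF and 394 times in Cripto KO F/A, and made 28.9% of the ligand level in WT F/A but 6.51% in Cripto KO F/A. Its Cripto KO to WT ratio in F/A, 0.172 (interval 0.149 to 0.200), was the opposite of the ratios of Fgf3, Fgf15 and Fgf17. Fgf10, a mesenchymal ligand, had 85, 416, 58 and 474 counts in WT serum/LIF, WT F/A, Cripto KO serum/LIF and Cripto KO F/A. Fgf7, a ligand of the epithelial form of FGFR2, had 125, 4, 150 and 4 in that order, and Fgf1 had 48, 9, 102 and 18. Fgf2, the gene of the basic FGF that F/A medium supplies, had 10 to 17 counts in every library.

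Fgf3, Fgf4 and Fgf15 lie on the same strand of chromosome 7, with 16.9 kb between Fgf3 and Fgf4 and 31.3 kb between Fgf4 and Fgf15. In F/A the log2 ratio of Cripto KO to WT was 1.88 for Fgf3, 0.78 for Fgf4 (counting interval including 1) and 2.46 for Fgf15, with the antisense Gm17685 at 1.86. The next genes on that side, Oraov1 and Ccnd1, the cyclin D1 gene, had 0.55 and 1.09, from 409 to 626 and from 1365 to 2846 counts. In serum/LIF the values were -0.13 for Fgf3, -0.32 for Fgf4, 1.47 for Fgf15, 1.53 for Gm17685, -0.03 for Oraov1 and -0.33 for Ccnd1. On the other side of Fgf3, Ano1, a chloride channel gene, had 0.23 in F/A and Fadd, an adaptor of death receptors, had 0.77, while Ppfia1, beyond them, had -0.18 with an interval of 0.786 to 0.934. Although they are neighbours, the 3 FGF genes differed in their own response to F/A in WT, with log2 values of -0.57 for Fgf3, -7.59 for Fgf4 and 0.16 for Fgf15.

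**Figure D5:**
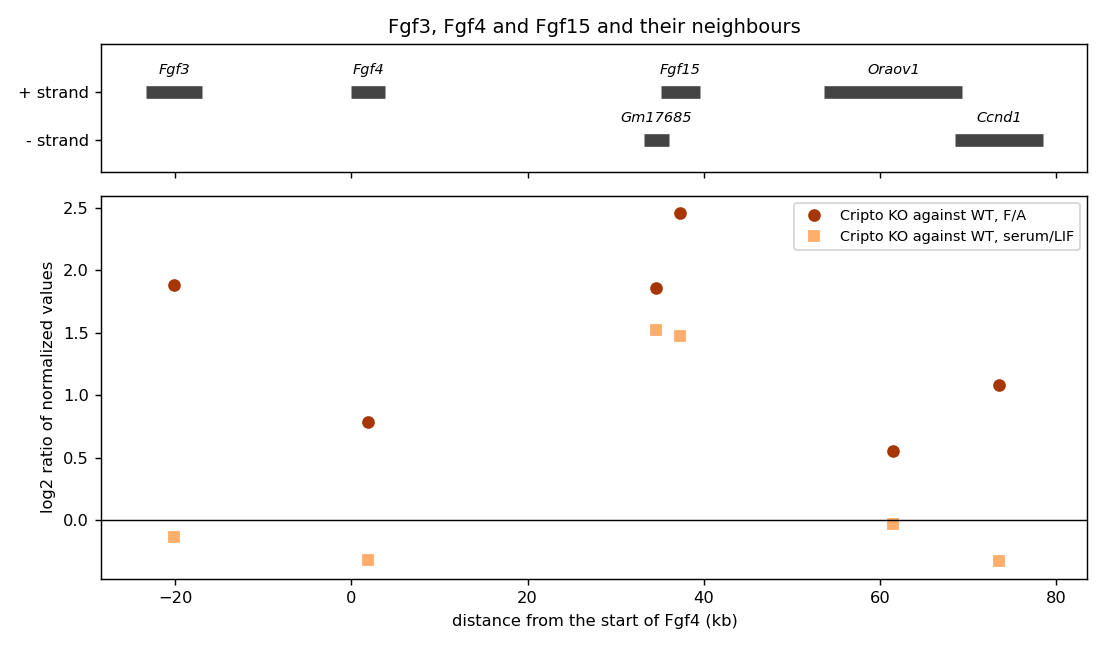
Positions of Fgf3, Fgf4, Fgf15 and the next genes in kb from the start of Fgf4 by strand (top), and the log2 ratio of normalized values, Cripto KO against WT, of each gene at its midpoint in F/A and in serum/LIF (bottom). In F/A all 6 genes lie above 0, with Fgf15 highest at 2.46, and in serum/LIF only Fgf15 and Gm17685 lie above 0.

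For each gene, the 12392 genes of the normalized table with at least 100 counts in their highest library were searched for the nearest log2 profile over the 4 libraries, centred on its own mean. With 4 libraries such likeness is a description only. Nearest to Fgf4 were Lrrc2, Gm13247 and Rinl (distances 0.28, 0.28 and 0.38), and Lrrc2 was counted 1171, 5, 890 and 10 times in WT serum/LIF, WT F/A, Cripto KO serum/LIF and Cripto KO F/A. The nearest to Fgf8 were Sprr2a3 (0.48), Frzb (0.72), which encodes a secreted Wnt antagonist, and Igf2 (0.84), the insulin-like growth factor gene, with 22, 18608, 49 and 30974 counts. Fgf15 had Id2 (0.39), an inhibitor of helix-loop-helix factors, with 291, 403, 921 and 1676 counts, then its antisense Gm17685 (0.75) and Rnd1 (0.82). Igfbpl1 (0.19), Thnsl2 (0.22) and Micall2 (0.28) were nearest to Fgf3, and Pltp (0.32), Runx1t1 (0.39) and Kcnj4 (0.50) to Fgf17. Among the receptors, Fgfr1 lay next to Grsf1, Vamp4 and 8430427H17Rik (0.03, 0.05 and 0.05) and Fgfr2 next to Myh9 (0.15), the nonmuscle myosin gene, Gulp1 (0.16) and Nrbp2 (0.19). Fgfr3 lay next to Tnfrsf19 (0.13), Mmp9 (0.21) and Myh11 (0.23), and Fgfr4 next to Ankle1 (0.12), Dpp7 (0.17) and Gnpda1 (0.22).

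Of 10 listed co-receptors and binding proteins 7 were in the normalized table, and of these 6 were at least 2-fold higher in F/A and 1 (Flrt1, named after its values were seen) was lower in WT, beside the 22.1% and 20.9% of all genes, and 6 were higher and 0 lower in Cripto KO, beside 19.9% and 19.4%. Fgfbp1, a carrier that frees FGFs from the matrix, had 22, 780, 22 and 822 counts (WT serum/LIF, WT F/A, Cripto KO serum/LIF, Cripto KO F/A). Flrt3, a membrane partner of FGF receptors, had 49, 1229, 22 and 758 in that order, and Cdh2, N-cadherin, 111, 4232, 106 and 3522. Fgfrl1, the FGF receptor without a kinase domain, had 120, 418, 111 and 656. Of 20 measured heparan sulfate proteoglycans and their enzymes 12 were at least 2-fold higher in F/A and 0 lower in each genotype, with a median log2 ratio of 1.30 in both against -0.07 over all genes in both. The largest log2 ratios were those of the glypican Gpc6 (5.08), the sulfotransferase Hs6st2 (3.68) and the glypican Gpc3 (3.32) in WT, and of Gpc6 (5.16), Gpc3 (3.57) and Hs6st2 (2.27) in Cripto KO. The other 8 did not reach 2-fold, and Hs6st1, Sulf2 and Sdc4 had negative log2 ratios in both genotypes (-0.87, -0.84 and -0.59 in WT). Between genotypes within F/A, 0 of these 20 and 1 of the 7 reached 2-fold, which was Flrt1 with 4 counts in WT and 24 in Cripto KO. Of all genes, 4.57% were at least 2-fold higher and 5.69% lower in that comparison. Gpc4, a further glypican, had the largest difference of the 20, with 1928 counts in WT F/A and 1098 in Cripto KO F/A (log2 -0.85).

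Of 25 adaptors and kinases 8 were at least 2-fold higher and 2 lower in F/A in WT, beside 22.1% and 20.9% of all genes, and 3 were higher and 1 lower in Cripto KO, beside 19.9% and 19.4%. Between genotypes 0 of the 25 reached 2-fold in either culture. Of all genes, 4.57% were higher and 5.69% lower in Cripto KO in F/A, and 2.86% and 2.73% in serum/LIF. Gab1, a docking protein, was lower in F/A in both genotypes (6792 to 1599 counts in WT and 7002 to 1516 in Cripto KO). Cbl, a ubiquitin ligase that acts on activated receptors, had 906 counts in WT F/A and 486 in Cripto KO F/A (log2 -0.94), the largest difference between genotypes in F/A among the 25. Braf, a RAF kinase, came next with 4359 and 2568 counts (log2 -0.76). Of 16 feedback genes and targets of the pathway 8 were higher and 5 lower in F/A in WT, and 8 were higher and 3 lower in Cripto KO, beside the same shares of all genes. Dusp4, a phosphatase of ERK, had log2 ratios of 4.26 and 3.58. Egr1, an immediate early gene, was the 1 gene of these 16 that reached 2-fold between genotypes in F/A, with 688 counts in WT and 1396 in Cripto KO. Its log2 ratio of 1.003 was right at the threshold, and the interval of the ratio, 1.76 to 2.18, reached below 2. This 1 gene of 16 stood beside the same 4.57% of all genes higher and 5.69% lower.

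Some markers of other cell types also differed between genotypes in F/A, in either direction, while others were alike. Summed CPM of 5 mesoderm markers of mixed kinds were 1.44 and 2.15 in serum/LIF (WT and Cripto KO), 17.0 in WT F/A and 81.3 in Cripto KO F/A. That difference came from 2 of the 5, Meox1 (42 counts in WT F/A and 582 in Cripto KO F/A) and Hand2 (81 and 584), whereas Mesp1 (40 and 46) and Msgn1 (44 and 46) were alike and Tbx6 was lower (52 and 22). The 5 trophoblast markers summed to 5.26 and 2.03 in serum/LIF, 164 in WT F/A and 196 in Cripto KO F/A, with members going opposite ways. From WT F/A to Cripto KO F/A, Hand1 went from 196 to 1730 counts and Cdx2 from 104 to 674, Eomes, which is also a streak gene, went from 1963 to 422, Gata3 had 238 and 252, and Elf5 was at or under the floor in every library. Sums in the order WT and Cripto KO serum/LIF, WT and Cripto KO F/A were 20.2, 16.7, 180 and 267 for 5 primitive endoderm markers, and 89.2, 88.1, 67.4 and 150 for 5 fibroblast markers. The F/A difference in the fibroblast sum came mostly from Col1a1 (504 counts in WT F/A and 1496 in Cripto KO F/A) and Col1a2 (376 and 694). Postn (124 and 138) and Thy1 (18 and 28) had close counts. The 6 primed epiblast markers, Fgf5 among them, summed to 1040 in WT F/A and 503 in Cripto KO F/A, and the 3 neural markers to 29.2 and 34.6. Their part in the ratios of the FGF genes was not tested.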

How the data were processed

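Per the labels and the paper's methods, the authors aligned paired-end HiSeq 2500 reads with TopHat2 2.0.13 to mm9 (NCBIM37) and deposited raw counts per gene made with HTSeq 0.6.1p1 (intersection-nonempty) on Ensembl 67. The authors also deposited a signal, these counts after full quantile normalization (preprocessCore 1.28.0, RNASeqGUI 0.99.3) and the NOISeq 2.8.0 proportion filter at 1 cpm, which recomputing from the raw counts gave exactly. Symbols, positions and transcript lengths came from GENCODE M1 (Ensembl 65) on the same build, which named 37205 (98.9%) of the raw genes. Log2 ratios were taken of normalized values with 0 set to 0.5, a 2-fold difference being the threshold. The NOISeq-sim probability of the authors was not used, since it rests on simulated replicates. The intervals used Python 3.11.15 with scipy 1.17.1, and the scaling alternatives edgeR 4.0.16 (TMM) and DESeq2 1.42.0 (size factors). Only the Clopper-Pearson intervals and the quantile-normalized log2 ratios with their 2-fold threshold were tested on simulated data. From each list some of the genes with the largest difference in a comparison and at least 100 counts were named, as were all ligands with at least 100 counts. Fgf2, Flrt1, Hs6st1, Sulf2, Sdc4, Mesp1, Msgn1, Tbx6 and Elf5 were named after their values were seen. The members and lists were chosen with earlier results of these data known. The symbols Anos1, Spry3, Tfap2c and Sox1 were not analysed here.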

Additional observations from a re-analysis of the deposited data

Results flagged for a closer look

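For 5 genes the response to F/A had opposite signs in WT and Cripto KO on the normalized values, as it had for 16.4% of all genes tested. These came from the 9 members, of which Fgf3 alone was among them, and their measured neighbours on chromosome 7. The neighbours Ano1, Gm10574 and Gm17685 had the same sign in both genotypes. For Ccnd1 and Fadd both counting intervals left out 1, whereas 1 of the 2 intervals included 1 for Fgf3, Ppfia1 and Oraov1, and the WT ratio of Oraov1 was 1.02 on CPM, the same direction as in Cripto KO. The difference was not tested, since each response rests on 1 library per condition. For Fgf3 the log2 response was -0.57 in WT and 1.44 in Cripto KO, a difference of 2.01. The others were neighbours of the Fgf3, Fgf4 and Fgf15 genes on chromosome 7. The difference between genotypes was 1.41 for Ccnd1 (from -0.74 in WT to 0.68 in Cripto KO), 0.77 for Fadd, 0.58 for Oraov1 and -0.35 for Ppfia1.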

How the results depend on the processing

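Normalization without the filter gave the deposited values again and is left out here. Of 72 other recomputed counts of genes past 2-fold, 70 stayed within 1.5 times. With at least 3-fold as the threshold, the count of higher genes in Cripto KO, F/A against serum/LIF, went from 6 to 3, and the count higher in Cripto KO in serum/LIF from 1 to 0. Of 216 recomputed log2 ratios of single genes 213 moved by less than the distance from the middle to the end of their log2 counting interval, and 0 reversed. Fgfr1 in WT reached 1.02 with TMM factors and 1.11 after removal of the trend over transcript length, and Fgf8 in F/A, Cripto KO against WT, went to -0.41 after that removal. The log2 response of Fgf8 in WT was 7.68 when 5 was added to every value. Shares per length by the longest transcript, and the alternatives of the difference between the responses of the genotypes, were added after seeing the data. The labels give no replicate numbers, so no fit with a replicate block was made, and a fit of culture across both genotypes was not run. With 1 library per condition no replicate was left out. Depth limits values under 100 counts: Fgf3 in all libraries, Fgf15 in WT, Fgf17 in WT F/A, Fgf8 in serum/LIF, Fgf4 in F/A, Fgfr3 in Cripto KO serum/LIF, and Fgfr4 in WT and in Cripto KO F/A. Divided by 2 as for its interval, the 114 counts of Fgf17 in Cripto KO F/A fall under 100 as well.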

Other observations

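Other ligands had few counts. Fgf18 was counted 21 times in WT serum/LIF, 16 times in WT F/A, 86 times in Cripto KO serum/LIF and 30 times in Cripto KO F/A, so that, as for Fgf15, Fgf17 and Fgf1, each Cripto KO library had more counts than the WT library of the same culture. Fgf16 had 1, 71, 1 and 20 counts in WT serum/LIF, WT F/A, Cripto KO serum/LIF and Cripto KO F/A, and like Fgf5 it was higher in WT F/A than in Cripto KO F/A. Fgf6 was at 0 counts in all 4 libraries. These ligands were chosen after their values were seen.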
